A study of Homo sapiens with 36 samples.

Results

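Annexins are proteins that bind acidic phospholipids of the membrane, phosphatidylserine above all, when calcium rises. The 10 annexin genes ANXA1, ANXA2, ANXA3, ANXA4, ANXA5, ANXA6, ANXA7, ANXA8, ANXA8L1 and ANXA11 are described here, of 27253 genes with a value above 0. They are members of the family, and the list was chosen from A9 against DMSO in these data. ANXA8 was singled out because its response to A9 differed most between the cell lines, with a lower value in MONO-MAC-6 than in MOLM-13, and it is given together with its near-identical copy ANXA8L1. That choice used measured values of A9 against DMSO in both lines, so those contrasts are given for the annexins as a description, with no p-value.

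RNA was measured by bulk poly(A) sequencing in a pair of human lines of acute myeloid leukaemia (AML) with monocytic character, MOLM-13 and MONO-MAC-6, both labelled wild type and grown in RPMI medium with serum. Cells received A9 or its vehicle DMSO for 72 h. A9 is a PROTAC, a molecule with a ligand for a target at one end and a ligand for a ubiquitin ligase at the other. The series' design text names IKK2 and NR4A1 as its targets, and its title names IKK1 in place of IKK2. MOLM-13 received 0.125 µM of A9 and MONO-MAC-6 received 0.25 µM, so line, dose and data table cannot be told apart in any comparison between lines. Each of the 4 groups held 9 libraries whose titles carry a pair of numbers, and the design text gives 3 replicates per condition. The labels do not say which number is the replicate. The 3 libraries with the same first number agreed more closely than those with the same second number and were taken as repeats of 1 sample and averaged, which gave 3 samples per group (n = 3). Averaged by the second number instead, 8701 genes rather than 433 were called between A9 and DMSO in MONO-MAC-6 and 5437 rather than 14 in MOLM-13, so every p-value here rests on that reading of the titles. No label says that the samples came from separate cultures, so p-values measure only the spread between these samples, which may be technical. Each group stands for 1 cell line, with no other line of its kind.

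All values are TPM, an abundance scaled for transcript length and summing to 1000000 in each library, so a level is a share of the measured transcripts. Read depth was not given with these values. Of 10 myeloid marker genes, 7 to 9 reached 1 TPM in each group, CD33, LYZ, MPO and SPI1 among them. CD14 and ANPEP stayed below 1 TPM in both MOLM-13 groups. CSF1R reached 1 TPM only in MOLM-13 with A9 and stayed below it in both MONO-MAC-6 groups. The summed level of that list ran from 525 to 590 TPM with DMSO and from 719 to 829 TPM with A9 in MOLM-13. In MONO-MAC-6 it ran from 4006 to 4898 and from 8772 to 9023 TPM. LYZ alone averaged 133 TPM with DMSO and 327 TPM with A9 in MOLM-13, and 3413 and 7681 TPM in MONO-MAC-6. Most of the rise in these sums was therefore LYZ. No T-cell, erythroid, megakaryocyte or fibroblast marker reached 1 TPM as a group mean. Of 4 epithelial genes KRT8 and KRT18 reached it, with a list sum of 5.88 to 6.08 TPM with DMSO and 3.503 to 3.769 TPM with A9 in MOLM-13, and of 13.9 to 16.3 and 8.00 to 9.29 TPM in MONO-MAC-6, and KRT19 was at 0. Of 3 endothelial genes PECAM1 alone reached it, which monocytes also carry, with a list sum of 12.35 to 24.04 and 12.96 to 29.88 TPM in MOLM-13 and of 40.2 to 124 and 194 to 217 TPM in MONO-MAC-6. The part of these markers in the annexin values was not tested. The first DMSO sample of MONO-MAC-6 stood apart from the other 2. With it, the median log2 difference of all genes between A9 and DMSO in MONO-MAC-6 was 0.16, and without it 0.027. Rescaling the samples by median ratios brought that median to -0.0092, so annexin values in MONO-MAC-6 are also given with the rescaling and, where leaving that sample out moves them, without it.

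Every annexin has a conserved core of annexin repeats that holds the calcium-dependent membrane contacts, and a short or long N-terminal tail that differs between members and binds partner proteins. Inside cells annexins organise membrane domains, vesicle traffic and the sealing of torn membranes. Outside cells some have other roles: ANXA1 is an anti-inflammatory protein of neutrophils and monocytes that acts on formyl peptide receptors, and ANXA2 with S100A10 forms a plasminogen receptor. In leukaemia, ANXA8 and surface ANXA2 are best known from acute promyelocytic leukaemia, where the latter is tied to bleeding.

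ANXA8 (ENSG00000265190, chr10:47460162-47484158, minus strand, GRCh38) and ANXA8L1 (ENSG00000264230, chr10:46375627-46391784, plus strand) are shown first as sequence, since their likeness limits how well reads can be divided between them. Both encode the same kind of protein. The coding sequences of the transcripts ANXA8-205 and ANXA8L1-204 in GENCODE release 29 are each 984 bases long and differ at 5 bases, an identity of 99.5%, with an identical run of up to 408 bases. Counted from 1 at the first base of the coding sequence, with the base of ANXA8 first, the differences are T16G, C276T, A528G, G530C and T939C. Bases 470 to 589 are printed, with the differing bases A528G and G530C in capitals.
ANXA8-205: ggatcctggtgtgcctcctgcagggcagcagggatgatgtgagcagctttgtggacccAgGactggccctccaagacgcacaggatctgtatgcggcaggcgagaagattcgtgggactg
ANXA8L1-204: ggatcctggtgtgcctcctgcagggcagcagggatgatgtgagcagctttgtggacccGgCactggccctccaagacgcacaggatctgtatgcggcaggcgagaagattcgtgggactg
Reads from an identical stretch match both genes, so the pair is also given as a sum. TPM is scaled for transcript length, and ANXA8-205 has 1960 bases where ANXA8L1-204 has 1109. The summed TPM can therefore still depend on how the reads were divided.

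ANXA8 had opposite values in the lines, higher with A9 in MOLM-13 and lower with A9 in MONO-MAC-6. In MOLM-13 it stood at 10.2, 8.21 and 8.27 TPM in the DMSO samples and at 18.5, 20.5 and 15.5 TPM in the A9 samples. In MONO-MAC-6 it stood at 2.26, 3.61 and 4.25 TPM with DMSO and at 1.14, 1.10 and 0.756 TPM with A9. Every A9 sample of MOLM-13 was above every DMSO sample, and every A9 sample of MONO-MAC-6 was below every DMSO sample. The mean went from 8.88 ± 1.11 to 18.2 ± 2.55 TPM (SD, n = 3) in MOLM-13, a ratio of 2.04, and from 3.38 ± 1.02 to 0.997 ± 0.209 TPM in MONO-MAC-6, a ratio of 0.295. On the log2(TPM + 1) scale, which understates changes of low genes, the differences were 0.95 (SE 0.14) and -1.11 (SE 0.20). The difference between lines was -2.06 (SE 0.26). The next lowest differences between lines were those of ANXA3 (-0.44) and ANXA6 (-0.31). In bulk RNA, fewer cells carrying a transcript and less of it per cell cannot be told apart. The values of ANXA8 held their direction without the first DMSO sample of MONO-MAC-6 (-1.31) and with the rescaling (0.99 and -1.22).

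ANXA8L1 was close to 0 in every group. It lay between 0 and 0.0905 TPM in MOLM-13 and between 0.0140 and 0.426 TPM in MONO-MAC-6, and the A9 and DMSO samples overlapped in both lines. Summing the pair left the picture of ANXA8 as it was: the summed log2 differences were 0.95 (SE 0.15) in MOLM-13 and -1.09 (SE 0.22) in MONO-MAC-6. Within ANXA8, the transcript ANXA8-205 held 80.9% to 91.6% of the gene's TPM in the DMSO samples and 86.2% to 88.3% in the A9 samples of MOLM-13. In MONO-MAC-6 it held 58.5% to 72.9% with DMSO and 11.7% to 71.7% with A9, where the gene was near 1 TPM, and the groups overlapped in both lines. Restricted to protein-coding transcripts, ANXA8 averaged 8.00 ± 0.867 TPM with DMSO and 16.9 ± 2.20 TPM with A9 in MOLM-13, and 2.85 ± 0.727 and 0.758 ± 0.167 TPM in MONO-MAC-6.

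**Figure D1:**
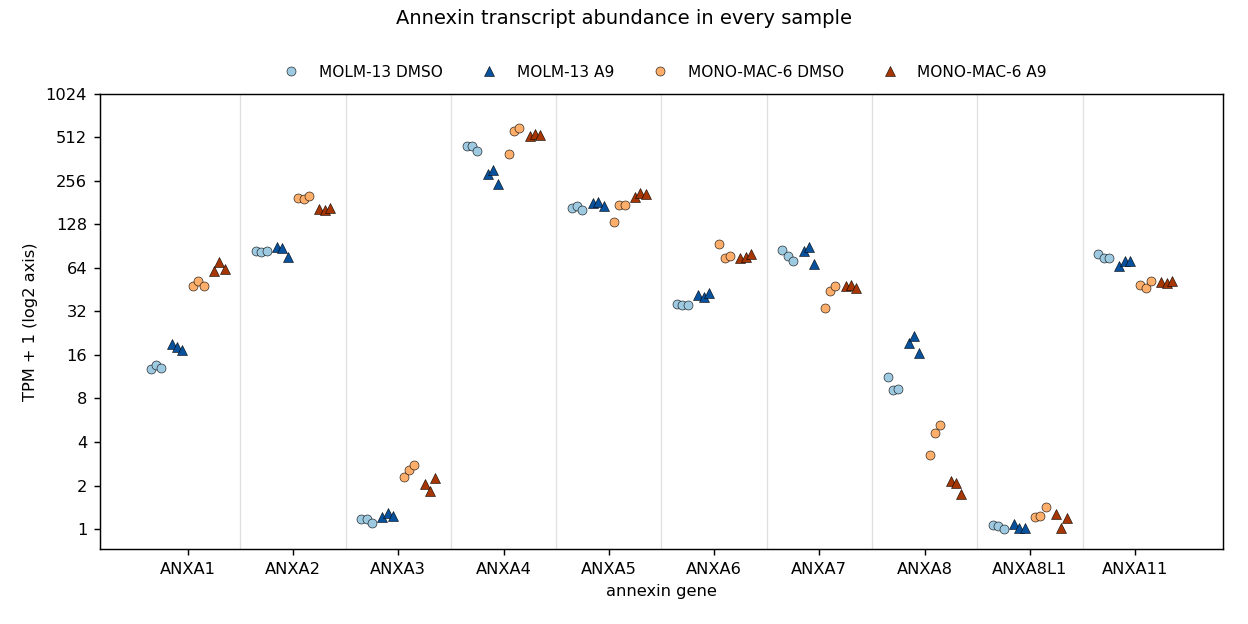
TPM + 1 on a log2 axis for each of the 10 annexins, with 1 point per sample (3 per group), circles for DMSO and triangles for A9. ANXA4 is the highest in every group, and ANXA8 is the gene whose A9 samples lie above the DMSO samples in MOLM-13 and below them in MONO-MAC-6 by the widest margin.

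The order of levels was headed by ANXA4 in all 4 groups. The 10 annexins together made up 889 ± 33.3 TPM in MOLM-13 with DMSO and 760 ± 54.4 TPM with A9. In MONO-MAC-6 the sums were 1092 ± 134 TPM with DMSO and 1134 ± 20.8 TPM with A9. ANXA4 and ANXA5 alone held 67.2% ± 0.748 of the summed annexin TPM in MOLM-13 with DMSO and 59.6% ± 0.533 with A9, and the samples of these groups did not overlap. In MONO-MAC-6 their share was 61.3% ± 4.85 with DMSO and 64.7% ± 0.363 with A9, where the first DMSO sample was lowest at 55.7%.

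In MOLM-13 with DMSO, ANXA4 was followed by ANXA5, and then by ANXA2, ANXA7 and ANXA11, whose ranges overlapped from neighbour to neighbour. ANXA6, ANXA1, ANXA8, ANXA3 and ANXA8L1 came next, each clear of its neighbours. With A9 the order was the same except that ANXA8, at 18.2 TPM, overlapped ANXA1, at 17.1 TPM. In MONO-MAC-6 with DMSO, ANXA4 was followed by ANXA2, ANXA5, ANXA6, then ANXA11 and ANXA1, which overlapped, then ANXA7, ANXA8, ANXA3 and ANXA8L1. With A9 in MONO-MAC-6, ANXA5 stood above ANXA2 and ANXA1 above ANXA11, and ANXA3 and ANXA8 overlapped near 1 TPM.

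Upstream sequences of ANXA4, ANXA1 and ANXA2, which follow, and of the ANXA6 starts, are printed because IKK2, a target named for A9, acts on NF-kappa-B, which binds kappa-B sites. They are the 250 bases before a RefSeq start site (GRCh38.p14), 5′ to 3′ on the gene's strand, with matched motifs in capitals. The motifs searched on both strands, chosen after the sequences had been seen, were the kappa-B letters (GGGAN followed directly by TTTCC), the AP-1 letters TGANTCA, the TATA box TATAAA and the CCAAT box CCAAT. Windows of 300 bases, 250 before and 50 after the start, were at hand for 9 of the 10 annexins, 13 windows in all, with none for ANXA8.
ANXA4, chr2:69741884-69742133, plus strand: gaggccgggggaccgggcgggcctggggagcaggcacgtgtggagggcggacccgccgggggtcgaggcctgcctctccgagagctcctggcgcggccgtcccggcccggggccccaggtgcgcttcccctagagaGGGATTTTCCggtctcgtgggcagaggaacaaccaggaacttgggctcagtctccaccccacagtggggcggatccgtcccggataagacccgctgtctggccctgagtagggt
ANXA1, chr9:73151615-73151864, plus strand: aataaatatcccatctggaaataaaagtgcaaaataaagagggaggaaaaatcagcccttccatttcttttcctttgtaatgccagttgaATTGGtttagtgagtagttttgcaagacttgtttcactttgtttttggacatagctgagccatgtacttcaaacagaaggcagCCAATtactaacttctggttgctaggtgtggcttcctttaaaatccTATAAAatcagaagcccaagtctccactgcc
ANXA2, chr15:60397987-60398236, minus strand: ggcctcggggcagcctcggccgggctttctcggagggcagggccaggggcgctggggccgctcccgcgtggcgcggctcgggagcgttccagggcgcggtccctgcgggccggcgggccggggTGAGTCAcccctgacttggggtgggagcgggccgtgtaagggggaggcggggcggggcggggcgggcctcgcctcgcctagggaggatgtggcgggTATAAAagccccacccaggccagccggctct
ANXA6 outer start, chr5:151157780-151158029, minus strand: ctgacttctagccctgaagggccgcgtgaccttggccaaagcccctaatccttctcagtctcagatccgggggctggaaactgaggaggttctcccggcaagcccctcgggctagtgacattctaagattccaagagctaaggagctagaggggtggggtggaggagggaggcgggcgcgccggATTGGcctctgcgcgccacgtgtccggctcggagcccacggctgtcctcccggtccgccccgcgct
ANXA6 inner start, chr5:151141685-151141934, minus strand: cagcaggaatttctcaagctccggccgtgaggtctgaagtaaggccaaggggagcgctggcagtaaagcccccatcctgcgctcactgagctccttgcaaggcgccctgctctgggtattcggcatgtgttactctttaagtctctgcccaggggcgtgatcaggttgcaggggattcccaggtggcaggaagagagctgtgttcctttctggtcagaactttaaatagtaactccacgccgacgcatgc
Among the 13 windows, the kappa-B letters were found only in 1 window of ANXA4, 114 bases before its start site. The main ANXA4 transcripts, ANXA4-201 and ANXA4-202, begin at base 69741974 in GENCODE, which is before that match. These letters occur in 0.558% of all 35116 windows of this length. ANXA1 and ANXA2 each hold TATAAA 31 bases before the start, which 11.5% of all windows hold somewhere, and ANXA2 holds the AP-1 letters at 127 bases before the start, which 7.71% hold. ANXA1 holds 2 CCAAT boxes and the outer start of ANXA6 holds 1, where 34.6% of all windows hold any. In GENCODE the main ANXA1 transcript, ANXA1-201, begins at base 73151757, upstream of the TATAAA and of the nearer CCAAT box. ANXA2-204, the most abundant ANXA2 transcript, begins at base 60398043, upstream of the TATAAA, while ANXA2-203 begins at base 60397986, downstream of it. ANXA6-201 begins at base 151157882, upstream of the CCAAT box of the outer start. The inner start of ANXA6 holds none of the 4 motifs as spelled here. Looser spellings of the kappa-B site were not searched, so their absence from a window is not shown. A match is a string of letters and no sign of binding, which was not measured.

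ANXA1 and ANXA2, the annexins with the best known extracellular roles, went different ways. ANXA1 (ENSG00000135046, chr9:73151757-73170393) stood at 11.7, 12.7 and 12.03 TPM with DMSO and at 18.0, 17.0 and 16.3 TPM with A9 in MOLM-13. In MONO-MAC-6 it stood at 46.6, 50.5 and 46.9 TPM with DMSO and at 60.1, 69.1 and 61.4 TPM with A9. In both lines every A9 sample was above every DMSO sample. The log2 differences were 0.46 (SE 0.092) and 0.40 (SE 0.092), ratios of 1.41 and 1.32, and the difference between lines was -0.064 (SE 0.11). With the rescaling the value in MONO-MAC-6 was 0.21, that in MOLM-13 was 0.50 and the difference between lines -0.30. Nearly all of it was 1 coding transcript, ANXA1-201.

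ANXA2 (ENSG00000182718, chr15:60347134-60402883) was lower with A9 in MONO-MAC-6 and level in MOLM-13. In MONO-MAC-6 it stood at 194, 192 and 201 TPM with DMSO and at 162, 159 and 165 TPM with A9, so that the groups did not overlap. In MOLM-13 it stood at 83.1, 81.8 and 83.2 TPM with DMSO and at 88.5, 86.1 and 75.1 TPM with A9, with the third A9 sample below and the other 2 above all DMSO samples. The log2 differences were -0.27 (SE 0.067) in MONO-MAC-6 and 0.0052 (SE 0.077) in MOLM-13, where the sign turned in 3 of 6 fits with 1 sample left out (down to -0.040). With the rescaling the value in MONO-MAC-6 was -0.46. The pseudogenes ANXA2P1, ANXA2P2 and ANXA2P3, which resemble ANXA2, took at most 0.0806 TPM in any sample.

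ANXA4 (ENSG00000196975, chr2:69644425-69827100) was the most abundant annexin, a protein known from the inner face of epithelial and secretory membranes. In MOLM-13 it stood at 444, 446 and 408 TPM with DMSO and at 286, 301 and 241 TPM with A9, and every A9 sample was below every DMSO sample. In MONO-MAC-6 it stood at 392, 559 and 591 TPM with DMSO and at 519, 540 and 532 TPM with A9. The groups of MONO-MAC-6 overlapped, with the first DMSO sample lowest of the 6. The log2 difference in MOLM-13 was -0.65 (SE 0.095), a ratio of 0.637. That in MONO-MAC-6 was 0.067 (SE 0.16), which became -0.12 without the first DMSO sample and -0.13 with the rescaling. The difference between lines was 0.72 (SE 0.20), or 0.48 with the rescaling. A non-coding transcript, ANXA4-204, held 19.5% to 21.2% of ANXA4 TPM in the DMSO samples of MOLM-13 but 5.07% to 19.1% in the A9 samples, and the coding transcripts alone went from 329 ± 12.8 to 224 ± 6.32 TPM.

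**Figure D2:**
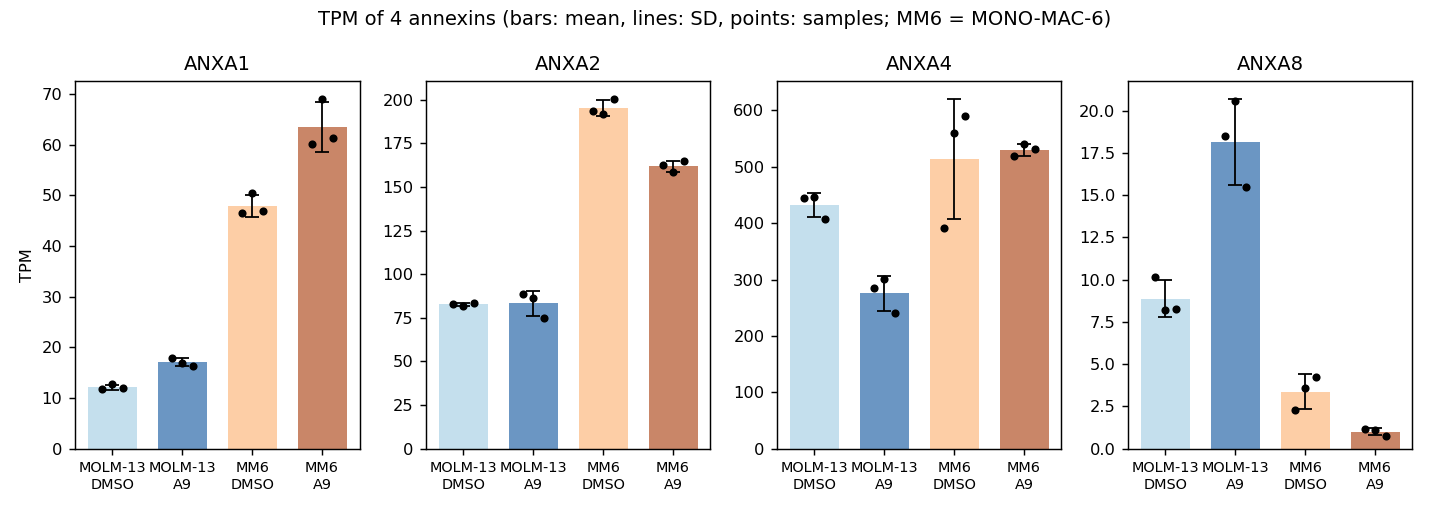
TPM of ANXA1, ANXA2, ANXA4 and ANXA8 in the 4 groups, with bars for the mean, lines for the SD and a point for each of 3 samples, and a separate axis from 0 for each gene. ANXA1 is higher with A9 in both lines, ANXA2 is lower in MONO-MAC-6, ANXA4 is lower in MOLM-13, and ANXA8 is higher in MOLM-13 and lower in MONO-MAC-6.

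ANXA5 (ENSG00000164111, chr4:121667955-121697113), whose purified protein is the common stain for phosphatidylserine on dying cells, was higher with A9 in both lines by small amounts. It stood at 164, 169 and 160 TPM with DMSO and at 178, 182 and 171 TPM with A9 in MOLM-13. In MONO-MAC-6 it stood at 131, 173 and 174 TPM with DMSO and at 196, 209 and 205 TPM with A9. The A9 samples were above the DMSO samples in both lines, though the third A9 sample of MOLM-13 exceeded the highest DMSO sample only narrowly. The log2 differences were 0.10 (SE 0.055) and 0.36 (SE 0.12), the latter 0.23 without the first DMSO sample and 0.17 with the rescaling.

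ANXA6 (ENSG00000197043, chr5:151100712-151157882), the member whose core is duplicated, was higher with A9 in MOLM-13 and overlapped in MONO-MAC-6. It stood at 34.8, 34.6 and 34.1 TPM with DMSO and at 40.5, 39.0 and 42.1 TPM with A9 in MOLM-13, a log2 difference of 0.22 (SE 0.069). In MONO-MAC-6 it stood at 92.0, 74.0 and 76.6 TPM with DMSO and at 73.8, 74.8 and 78.7 TPM with A9. There the log2 difference was -0.087 (SE 0.10), which became 0.0082 without the first DMSO sample and -0.28 with the rescaling. ANXA6 is transcribed from an outer start and from an inner start 16242 bases downstream, to which the transcript ANXA6-215 belongs. ANXA6-215 held 77.5% of ANXA6 TPM in MOLM-13 with DMSO, 68.6% with A9, 74.2% in MONO-MAC-6 with DMSO and 72.2% with A9. The samples with DMSO (75.5% to 79.7%) and with A9 (56.8% to 77.4%) overlapped in MOLM-13, as did those of MONO-MAC-6 (68.6% to 77.3% and 71.1% to 72.9%).

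ANXA7 and ANXA11 are the members with long N-terminal tails, which bind sorcin and PDCD6, and ANXA11 is known for tethering RNA granules to lysosomes. ANXA7 (ENSG00000138279, chr10:73375101-73414076) ranged from 67.4 to 88.0 TPM over both groups of MOLM-13 and from 32.6 to 47.8 TPM over those of MONO-MAC-6, and A9 and DMSO samples overlapped in both lines. Its log2 differences were 0.039 (SE 0.12) and 0.20 (SE 0.14), the latter 0.053 without the first DMSO sample and 0.016 with the rescaling. ANXA11 (ENSG00000122359, chr10:80150889-80205572) lay at 74.0 to 79.0 TPM with DMSO and at 65.1 to 69.9 TPM with A9 in MOLM-13, which did not overlap, for a log2 difference of -0.15 (SE 0.065). In MONO-MAC-6 it lay between 45.6 and 50.9 TPM in all 6 samples, with a log2 difference of 0.062 (SE 0.083) that was -0.13 with the rescaling. ANXA3 (ENSG00000138772, chr4:78551519-78610451), a phagosome-associated annexin of neutrophils, was near the limit of what was measured. It stayed between 0.106 and 0.300 TPM in MOLM-13, where A9 samples were above DMSO samples. In MONO-MAC-6 it was at 1.30, 1.58 and 1.78 TPM with DMSO and at 1.04, 0.837 and 1.26 TPM with A9, a log2 difference of -0.32 (SE 0.14) that was -0.39 without the first DMSO sample and -0.42 with the rescaling.

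**Figure D3:**
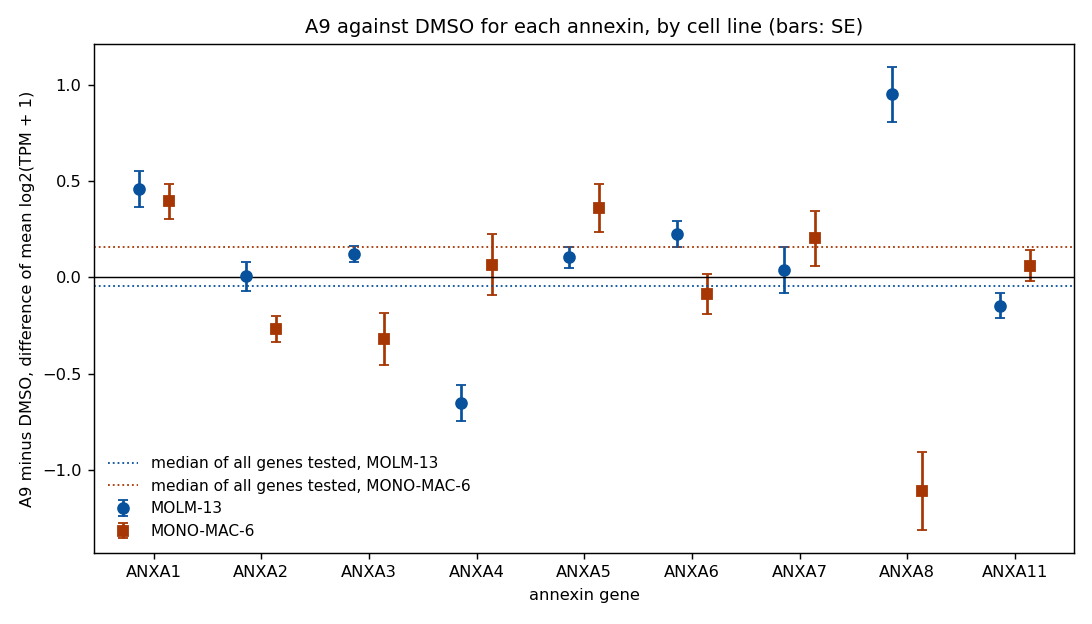
Difference of mean log2(TPM + 1) between A9 and DMSO for 9 annexins in MOLM-13 (circles) and MONO-MAC-6 (squares), with the SE as bars and dotted lines at the median of all genes tested (-0.046 and 0.16). ANXA8 lies at 0.95 and -1.11, ANXA4 at -0.65 and 0.067, and ANXA1 at 0.46 and 0.40; ANXA3 in MOLM-13 was below the level needed for testing.

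Genes entered a fit when their mean reached 1 TPM in a group, which 8 of the 10 annexins did in MOLM-13 and 9 did in MONO-MAC-6 and in the fit of both lines. In MOLM-13, 4 of the 8 had all A9 samples above all DMSO samples (ANXA1, ANXA5, ANXA6 and ANXA8), where 8.59% of all genes did, and 2 had all below (ANXA4 and ANXA11), where 6.42% did. In MONO-MAC-6, 2 of the 9 had all A9 samples above (ANXA1 and ANXA5), where 27.2% of all genes did, and 3 had all below (ANXA2, ANXA3 and ANXA8), where 10.6% did. ANXA8 entered the MONO-MAC-6 fit through the DMSO samples alone. The annexins' median log2 difference was 0.072 in MOLM-13, beside -0.046 for all genes tested, and 0.062 in MONO-MAC-6, beside 0.16. Since the list was chosen from these contrasts, nothing is read from these counts and no call is given for an annexin. At a Benjamini-Hochberg adjusted p below 0.05 in limma's moderated test, the genes called in MONO-MAC-6 were 433 of 12869, of which 74.6% were higher, or 58.1% with the rescaling. For the difference of the A9 effect between lines they were 401 of 13410, of which 64.3% were higher, or 50.7% with the rescaling.

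The levels in the DMSO samples of the lines were not the contrast by which the list was chosen, although that contrast also used these samples. They were tested for the 8 annexins other than ANXA8 and ANXA8L1. ANXA1, ANXA2, ANXA3 and ANXA6 were higher in MONO-MAC-6 than in MOLM-13, ANXA7 and ANXA11 were lower, and ANXA4 and ANXA5 did not pass the test. Thus 6 of 8 passed, where 58.0% of all genes did; 4 were higher, where 35.9% of all genes were called higher, and 2 were lower, where 22.1% were. Most genes differed between the lines, so these counts mark nothing particular to annexins. ANXA3 entered the fit only through MONO-MAC-6, where it was above 1 TPM, so its call adds nothing. ANXA1 differed most, at 12.2 ± 0.523 TPM in MOLM-13 and 48.0 ± 2.17 TPM in MONO-MAC-6, a log2 difference of 1.90 (95% interval 1.72 to 2.07, adjusted p = 6.61e-09). ANXA2 differed by 1.23 (1.09 to 1.37, adjusted p = 3.99e-08), with 82.7 ± 0.817 TPM in MOLM-13 and 195 ± 4.73 TPM in MONO-MAC-6. ANXA6 differed by 1.20 (1.02 to 1.38, adjusted p = 3.12e-07), with 34.5 ± 0.367 and 80.9 ± 9.71 TPM. In each of these 3 genes all samples of MONO-MAC-6 were above all samples of MOLM-13.

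In the other direction, ANXA7 averaged 77.0 ± 6.95 TPM in MOLM-13 and 40.9 ± 7.35 TPM in MONO-MAC-6, a log2 difference of -0.91 (-1.21 to -0.60, adjusted p = 0.000194). ANXA11 averaged 75.7 ± 2.85 and 48.1 ± 2.66 TPM, a difference of -0.64 (-0.78 to -0.51, adjusted p = 5.75e-06). ANXA3 differed by 1.15, but it entered the fit only through MONO-MAC-6, so no p-value is given for it here. The calls and directions of the other annexins that passed held in every fit that left out 1 sample and with the rescaling. ANXA4 differed by 0.23 (-0.08 to 0.54, adjusted p = 0.190), but by 0.41 with an adjusted p of 0.00210 when the first DMSO sample of MONO-MAC-6 was left out. ANXA5 differed by -0.059 (-0.27 to 0.16, adjusted p = 0.633), which was 0.076 without that sample and -0.25 with the rescaling (adjusted p = 0.0382). ANXA8 was lower in MONO-MAC-6 by 1.20 on the log2 scale, given with no test. Of the 7778 genes called in this comparison, 61.9% were higher in MONO-MAC-6, or 47.8% with the rescaling.

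**Figure D4:**
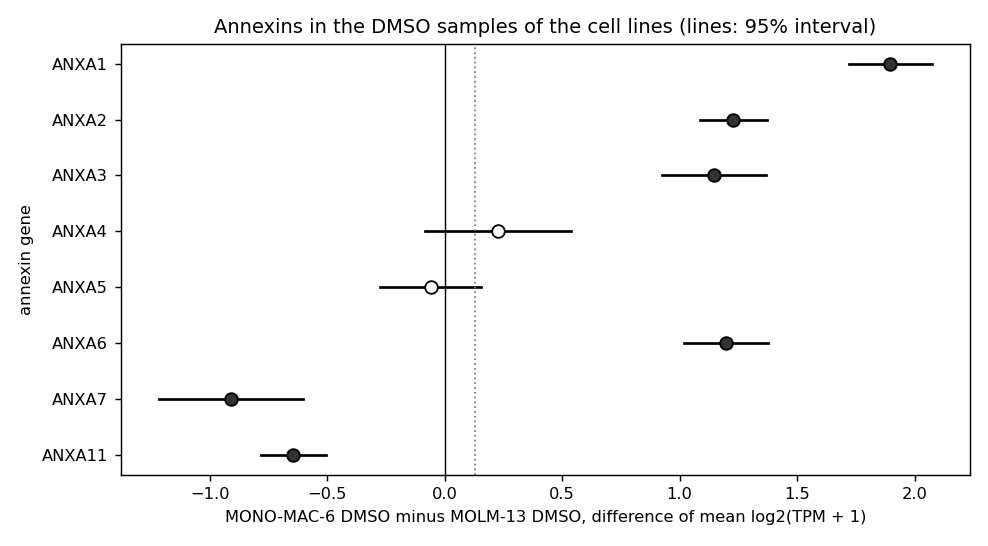
Log2 difference between the DMSO samples of MONO-MAC-6 and MOLM-13 (3 samples each) for 8 annexins with its 95% interval, filled where the adjusted p was below 0.05, and a dotted line at the median of all genes tested (0.13). ANXA1, ANXA2, ANXA3 and ANXA6 lie at 1.15 to 1.90, ANXA7 and ANXA11 at -0.91 and -0.64, and ANXA4 and ANXA5 have intervals that cross 0. ANXA3 entered the fit only through MONO-MAC-6.

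Genes whose products bind annexins or act beside them were taken in lists of partners with 39 genes, of which 28 could be tested in MONO-MAC-6 and 27 in MOLM-13. In MONO-MAC-6 4 rose with A9, S100A11, S100A6, DYSF and PLAUR, and none fell. Of all genes 3.36% were called there, 2.51% rose and 0.855% fell. DYSF and SERPINB2, at means of 0.646 and 0.378 TPM with DMSO, entered that fit only through the A9 samples. They had to differ to be tested, so the rise of DYSF adds nothing to the count. In MOLM-13 limma called 0 of 27, where 0.121% of all genes were called, with 6 at an unadjusted p below 0.05, where 7.89% of all genes were. The median log2 difference of the tested partners was 0.20 in MONO-MAC-6, beside 0.16 for all genes, and -0.012 in MOLM-13, beside -0.046. The former was 0.11, beside 0.027, without the first DMSO sample and 0.043, beside -0.0092, with the rescaling. The lists were drawn up with earlier results of these data known.

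Of 7 direct partners (S100A4, S100A6, S100A10, S100A11, AHNAK, SRI and PDCD6), 2 rose in MONO-MAC-6, where 2.51% of all genes did. S100A11, the calcium-binding partner of ANXA1, stood at 289, 253 and 265 TPM with DMSO and at 449, 512 and 505 TPM with A9 in MONO-MAC-6, a log2 difference of 0.86 (SE 0.090, adjusted p = 0.00685). In MOLM-13 it stood at 145, 150 and 154 TPM and at 177, 168 and 188 TPM, a difference of 0.24 (SE 0.063, adjusted p = 0.295). All A9 samples were above all DMSO samples in both lines, and the effect differed between lines by 0.61 (SE 0.10, adjusted p = 0.0109), a test that 3 of 28 partners passed, where 2.99% of all genes did and 1.92% were larger in MONO-MAC-6. With the rescaling neither the rise in MONO-MAC-6 (0.67, adjusted p = 0.106) nor the difference between lines (0.37, adjusted p = 0.390) passed. S100A6, which binds ANXA2, ANXA6 and ANXA11 among others, went from 191 ± 38.3 to 333 ± 24.6 TPM in MONO-MAC-6 (0.81, SE 0.15, adjusted p = 0.0435) and from 247 ± 19.1 to 382 ± 55.9 TPM in MOLM-13 (0.62, SE 0.12, adjusted p = 0.153). With the rescaling it did not pass in MONO-MAC-6 (0.62, adjusted p = 0.218). Its effect differed between lines by 0.19 (95% interval -0.26 to 0.64, adjusted p = 0.550), or by -0.050 with the rescaling.

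S100A10, which joins ANXA2 in the plasminogen-binding complex, did not pass the test in either line. It averaged 71.7 ± 2.67 and 90.4 ± 7.33 TPM in MOLM-13 (log2 difference 0.33, SE 0.078, adjusted p = 0.251) and 72.4 ± 3.36 and 78.4 ± 3.82 TPM in MONO-MAC-6 (0.11, SE 0.082, adjusted p = 0.434). Its A9 samples were above its DMSO samples in MOLM-13 and overlapped them in MONO-MAC-6. PDCD6, the calcium sensor that binds ANXA7 and ANXA11, averaged 212 ± 3.81 and 205 ± 5.54 TPM in MOLM-13 and 94.3 ± 2.78 and 93.1 ± 2.07 TPM in MONO-MAC-6. Its log2 differences were -0.046 (95% interval -0.17 to 0.079) and -0.019 (-0.19 to 0.15). AHNAK, a giant scaffold bound by ANXA2 and S100A10, varied widely within groups, from 17.8 to 36.4 TPM over all 12 samples, with differences of 0.14 (-0.56 to 0.85) and 0.15 (-0.40 to 0.71).

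The formyl peptide receptors FPR1, FPR2 and FPR3, on which secreted ANXA1 acts, were all at or below 0.230 TPM in every sample and were not tested. PLA2G4A, the phospholipase that ANXA1 restrains, was the tested gene of that list of 4 and was not called in either line. In MOLM-13 its A9 samples were all below its DMSO samples (log2 difference -0.44, 95% interval -0.81 to -0.076, adjusted p = 0.498). In MONO-MAC-6 it differed by -0.033 (adjusted p = 0.908). Without the first DMSO sample it passed there (-0.21, adjusted p = 0.0325), where 24.8% of all genes did. Of the 6 genes of the plasminogen system, 3 were tested in MONO-MAC-6, SERPINB2 only through its A9 samples. Of these 1 rose, where 2.51% of all genes did. PLAUR, the urokinase receptor, stood at 59.6, 60.4 and 62.6 TPM with DMSO and at 90.9, 99.2 and 92.9 TPM with A9, a log2 difference of 0.62 (SE 0.077, adjusted p = 0.0114). In MOLM-13 it went from 28.7 ± 1.45 to 26.8 ± 0.834 TPM (-0.098, SE 0.079, adjusted p = 0.869), and the effect differed between lines by 0.72 (SE 0.091, adjusted p = 0.00180). With the rescaling the rise in MONO-MAC-6 was 0.43 (adjusted p = 0.117) and the difference between lines 0.48 (adjusted p = 0.203).

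Of 9 genes of membrane repair, 1 rose in MONO-MAC-6, where 2.51% of all genes did. DYSF, dysferlin, which acts with ANXA1 and ANXA2 at torn membranes, stood at 0.401, 0.795 and 0.743 TPM with DMSO and at 1.74, 2.01 and 2.21 TPM with A9. It entered that fit only through the A9 samples, so it had to differ to be tested. Its log2 difference was 0.87 (SE 0.14, adjusted p = 0.0296). In MOLM-13 it averaged 10.5 ± 1.83 and 7.98 ± 1.82 TPM (-0.36, SE 0.20, adjusted p = 0.771), and the groups overlapped. The effect differed between lines by 1.23 (SE 0.25, adjusted p = 0.0272), or 1.06 with the rescaling (adjusted p = 0.00405). Of 7 genes of phosphatidylserine exposure, the scramblases and flippases that set how much of the annexins' lipid faces outwards, none was called in either line; in MONO-MAC-6 their log2 differences ran from -0.48 to 0.95 with a median of 0.52, 4 had an unadjusted p below 0.05, where 20.4% of all genes had, and 5 had all A9 samples above all DMSO samples, where 27.2% of all genes had. Without the first DMSO sample their differences ran from -0.42 to 0.49 with a median of 0.18, beside 0.027 for all genes tested. In that fit 2 of the 7 were called, where 24.8% of all genes were.

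The calls of partner genes in MONO-MAC-6 depended on single samples. Without the first DMSO sample 11 of 28 partners were called, where 24.8% of all genes were, up from 3.36% with all samples. Without any 1 of the other 5 samples 0 to 2 partners and 59 to 211 genes were called. S100A11 passed in 4 of 6 such fits (adjusted p from 6.76e-05 to 0.0733), PLAUR in 2 (0.000202 to 0.103), and S100A6 and DYSF in 1 each, that without the first DMSO sample (0.000251 to 0.224 and 0.00374 to 0.169). The difference between lines passed in 12 of 12 such fits for S100A11 and PLAUR and in 7 of 12 for DYSF (highest adjusted p 0.0847). Of the remaining annexins, ANXA9 averaged 4.53 ± 0.558 and 4.81 ± 0.592 TPM in MOLM-13 and 3.86 ± 0.333 and 3.57 ± 0.277 TPM in MONO-MAC-6, and was not called in either line, while ANXA10 and ANXA13 were under 1 TPM in every group.

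**Figure D5:**
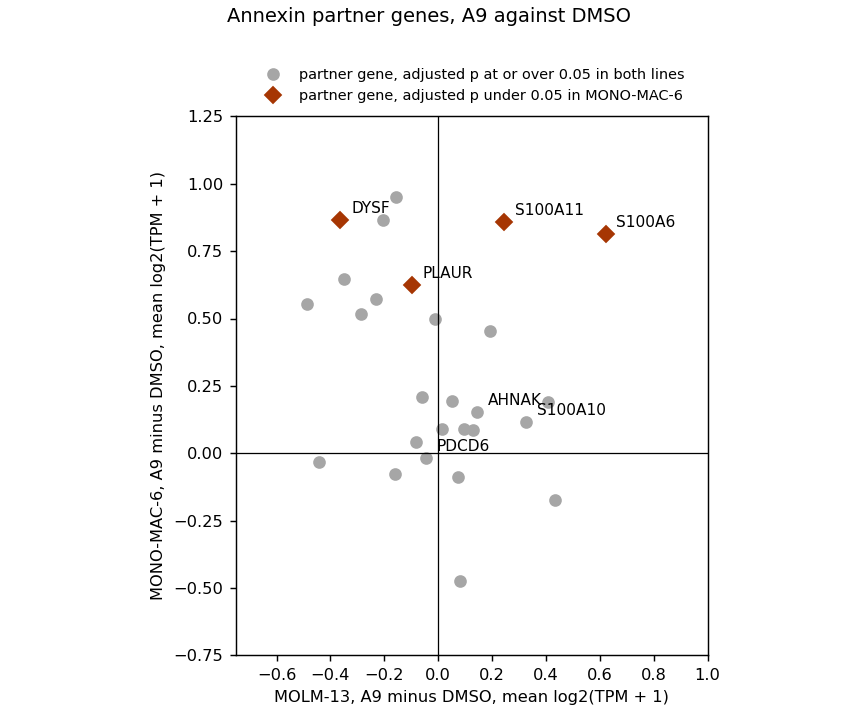
Difference of mean log2(TPM + 1) between A9 and DMSO for annexin partner genes tested in both lines, MOLM-13 on the x axis and MONO-MAC-6 on the y axis, 3 samples per group. S100A11, S100A6, DYSF and PLAUR, marked by diamonds, lie between 0.62 and 0.87 in MONO-MAC-6. DYSF entered the MONO-MAC-6 fit only through the A9 samples.

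The genes whose pattern over the 12 samples was most like that of an annexin, after each line's mean had been subtracted, were found among 8896 genes by Pearson's r of log2(TPM + 1). These r are descriptions: the samples share 2 treatments, so any gene with the same 2 differences scores high. For ANXA1 they were PTGR1, an enzyme that inactivates prostaglandins and leukotriene B4 (r = 0.979), BST1, an ectoenzyme of myeloid cells (0.970), and LYZ, lysozyme (0.966). LYZ went from 133 ± 10.4 to 327 ± 14.02 TPM in MOLM-13 and from 3413 ± 301 to 7681 ± 163 TPM in MONO-MAC-6. For ANXA2 they were SYNGR1, a vesicle membrane protein (0.969), NSDHL, an enzyme of cholesterol synthesis (0.955), and TUBA1B, an alpha-tubulin (0.947), each lower with A9 in MONO-MAC-6 by means. TUBA1B averaged 1458 ± 29.1 and 1421 ± 77.5 TPM in MOLM-13, and 1984 ± 78.8 and 1576 ± 39.5 TPM in MONO-MAC-6. For the sum of ANXA8 and ANXA8L1 they were RNF130, a ubiquitin ligase (0.955), SLC9A3R1, a membrane scaffold (0.951), and PDIA5, a disulfide isomerase of the endoplasmic reticulum (0.948). RNF130 averaged 48.4 ± 1.24 and 58.9 ± 2.42 TPM in MOLM-13, and 139 ± 6.27 and 116 ± 3.62 TPM in MONO-MAC-6, so it was higher with A9 in the former and lower in the latter.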

How the data were processed

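The members and the partner lists were chosen with earlier results of these data known. Per the submitters' processing notes, reads were handled with kallisto and limma on GRCh38, with versions and transcript annotation not given in the sources used here. The deposited tables hold TPM per transcript identifier and library for 36 libraries, normalized by the authors so that each library sums to 1000000. TPM of 162561 of 207175 transcripts (78.5%, holding 89.9% to 91.4% of TPM) were summed by gene symbol through GENCODE release 29. The TPM of the 3 libraries with a common first number were averaged, giving 12 samples. The repeats that share a first number were closer (median SD 0.089 and 0.097 log2 in the 2 lines) than libraries that share a second number (0.20 and 0.24).

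Genes averaging 1 TPM or more in any group of a fit were tested on log2(TPM + 1) with limma 3.58.1 (R 4.3.3; trend and robust) with Benjamini-Hochberg adjustment over all genes, threshold 0.05, in each line alone and, for the 2 comparisons between lines, in 1 fit of 4 groups. The code was tested on simulated data. With 3 against 3 samples an exact permutation test of 1 gene cannot go below 0.1, so none is given. Named were all 10 annexins, S100A10, S100A11, FPR1, FPR2, FPR3, PDCD6, AHNAK and PLAUR. Also named were up to 4 partner genes per list and line past the threshold, and the 3 genes most like ANXA1, ANXA2 and the ANXA8 pair. PLA2G4A, ANXA9 and SERPINB2 were named after their values were seen. Promoter sequences are RefSeq's. Alternatives were the pseudocount, the filter, median-ratio scaling, the averaging of libraries, a replicate block, the threshold, each sample left out and, chosen after seeing the data, protein-coding transcripts only. Same-numbered A9 and DMSO samples did not deviate together in every pair, so the block is given with the alternatives alone.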

Additional observations from a re-analysis of the deposited data

Results flagged for a closer look

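In 2 annexins the A9 samples lay on opposite sides of the DMSO samples in the lines, all above in MOLM-13 and all below in MONO-MAC-6. For ANXA8 the difference of the log2 effects (MONO-MAC-6 minus MOLM-13) was -2.06. For ANXA3 it was -0.44, between levels under 0.301 TPM in MOLM-13 and under 1.79 TPM in MONO-MAC-6. No test of these differences is given, since the annexins were chosen from this contrast.

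In 3 of 28 partner genes the test of the difference itself passed, where 2.99% of all genes did and 1.92% were larger in MONO-MAC-6: S100A11 at 0.61 (SE 0.10, adjusted p = 0.0109 by limma), DYSF at 1.23 (SE 0.25, adjusted p = 0.0272) and PLAUR at 0.72 (SE 0.091, adjusted p = 0.00180), each larger in MONO-MAC-6. MONO-MAC-6 also received more A9, and the effects of line and dose cannot be told apart. With median-ratio scaling S100A11 (adjusted p = 0.390) and PLAUR (adjusted p = 0.203) no longer passed, and with protein-coding transcripts only DYSF did not (adjusted p = 0.223).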

How the results depend on the processing

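The directions of ANXA1, ANXA5 and ANXA8 in both lines and of ANXA4 in MOLM-13 held under all alternatives run. Signs turned in 13 of the annexins' fits, for ANXA2 and ANXA7 in MOLM-13, ANXA4, ANXA6 and ANXA11 in MONO-MAC-6, ANXA7 and ANXA11 in the difference between lines and ANXA5 between the DMSO groups; the largest such value was -0.13. The number of genes called turned on which libraries were averaged and on single samples, and 1 MONO-MAC-6 DMSO sample decided much of it. Read depth is unknown, so the precision of low values such as ANXA3 and ANXA8L1 cannot be given. The cause of each change below was not tested.

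In MOLM-13, 14 genes were called. There were 4 with no filter, 46 with median-ratio scaling, 5437 with libraries averaged by second number, 87 with the replicate block, 4 at a threshold of 0.01 and 2 to 8 with 1 sample left out. The partners called, 0 at first, were 17 by second number and 1 with the replicate block.

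In MONO-MAC-6, 433 genes were called. There were 254 with no filter, 559 with median-ratio scaling, 8701 by second number, 102 with the replicate block and 109 at 0.01. With 1 sample left out there were 59 to 3202, the highest without the first DMSO sample and the lowest without the second A9 sample. The partners called, 4 at first, were 2 with no filter, 2 with scaling, 21 by second number, 0 with the replicate block, 1 at 0.01 and 0 to 11 with 1 sample left out.

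For the difference between lines, 401 genes were called, and 8502 by second number, 221 with the replicate block, 146 at 0.01 and 197 to 549 with 1 sample left out. Between the DMSO groups, 6 annexins were called, and 6 to 7 with 1 sample left out, the 7 without the first DMSO sample of MONO-MAC-6. Under the pairing of samples by first number, same-numbered samples correlated in their deviations at 0.36, -0.077 and 0.68 in MOLM-13 and at -0.027, 0.088 and -0.091 in MONO-MAC-6, and not every sample correlated best with its own number.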
